A study of Mus musculus with 12 samples.

Results

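Tongue transcripts of numbered group 2 were compared with those of numbered group 1 in a study of mice given the carcinogen 4-NQO (4-nitroquinoline oxide, which forms DNA adducts), ethanol, both or neither. The members are the genes of the authors' deposited table for this pair of groups that the authors marked as tested and that reached 1 FPKM in either group (fragments per kilobase and per unit of sequencing depth, a level that can be compared between genes of different length). These were 12799 of the 23235 gene rows. Interferon-induced transcripts led by Isg15 and the oligoadenylate synthetases were higher in group 2, together with some immediate early genes such as Fos. Secretory genes of the salivary glands led by Dcpp2 were lower in group 2, and so were a few digestive enzyme and mucosal genes that stood at 1 FPKM or more in group 1 and close to 0 in group 2.

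The 12 tongue samples came from C57BL/6 mice aged 31 weeks, with 3 samples in each of 4 treatment groups, which the labels write as 4-NQO/EtOH, 4-NQO/Untr., V.C./EtOH and V.C./Untr. The deposited tables number the groups 1 to 4 and give 1 level per gene and group, and the sources used here do not link the numbers to treatments. Groups 2, 3, 4 and 1 are therefore named by number alone, and no treatment is given to any of them. The labels state no doses and no genetic change, so strain, age and tissue are what is known to be shared by groups 2 and 1. Poly-A RNA was sequenced, the read depth per sample is unknown, and nothing in the labels says whether the 3 samples of a group were handled apart.

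Interferons are secreted signals that bind cell-surface receptors and act through Jak kinases and Stat transcription factors. Type I and type III interferons drive a complex that contains Stat2 and Irf9 onto a DNA element called the interferon-stimulated response element (ISRE), and the genes so induced block viruses, tag proteins, load peptides onto MHC molecules and damp the signal again. Type II interferon acts on a different element called GAS, and it induces guanylate-binding proteins, chemokines and MHC genes. In the tongue, the serous and mucous salivary glands that lie within the muscle secrete enzymes, mucins and antimicrobial proteins, and immediate early genes such as Fos answer within minutes to growth factors, stress or handling in nearly every cell type.

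Promoters of 6 genes that were higher in group 2 are shown because they hold the ISRE core, spelled GAAANNGAAA on either strand. Each stretch is the 110 bases before the RefSeq start of the gene, read in the gene's own direction, with the core or overlapping cores in capitals. Isg15 encodes a ubiquitin-like tag, Oas1a an oligoadenylate synthetase, Ifit1 a binder of foreign RNA, Apol9b an apolipoprotein L, Gbp2 a guanylate-binding protein and Irgm2 an immunity-related GTPase. On mm9 they lie at chr4:155574928-155575037 (minus strand), chr5:121357535-121357644 (minus), chr19:34715269-34715378 (plus), chr15:77559392-77559501 (plus), chr3:142283517-142283626 (plus) and chr11:58028369-58028478 (plus).
Isg15: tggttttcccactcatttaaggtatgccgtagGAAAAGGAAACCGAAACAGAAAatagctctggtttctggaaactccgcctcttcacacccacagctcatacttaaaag
Oas1a: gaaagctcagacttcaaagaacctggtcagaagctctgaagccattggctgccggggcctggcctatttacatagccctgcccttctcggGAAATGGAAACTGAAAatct
Ifit1: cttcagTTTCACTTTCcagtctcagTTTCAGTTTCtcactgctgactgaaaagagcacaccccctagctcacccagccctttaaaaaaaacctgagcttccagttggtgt
Apol9b: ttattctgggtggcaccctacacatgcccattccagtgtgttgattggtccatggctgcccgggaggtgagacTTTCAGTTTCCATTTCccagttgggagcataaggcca
Gbp2: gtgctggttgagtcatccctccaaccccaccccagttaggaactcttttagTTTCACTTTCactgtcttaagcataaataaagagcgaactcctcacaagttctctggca
Irgm2: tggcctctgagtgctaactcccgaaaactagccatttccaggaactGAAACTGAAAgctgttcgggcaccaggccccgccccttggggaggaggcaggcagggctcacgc
The Isg15 stretch holds 3 overlapping cores between 78 and 57 bases before the start, and the Oas1a stretch holds 2 that end 5 bases before it.

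In group 2, 76 genes were higher and 39 lower than in group 1, which is 0.594% and 0.305% of the 12799 genes measured (115 in all, 0.899%). The call required a q under 0.05 in the authors' deposited table, where q is the p adjusted for multiple tests. All differences are group 2 minus group 1 on the scale log2(FPKM + 1), which understates the change of low genes, and their standard errors (SE) were taken from the authors' own statistic with 3 samples a group. The rises ran between 0.48 and 2.76 with a median of 0.86, and 26 of the 76 reached 2-fold on that scale. The falls ran between -0.53 and -6.06 with a median of -0.96, and 18 of the 39 reached 2-fold. Over all genes the median difference was 0.016, and 54.3% of genes had a difference above 0. The authors' deposited table gave an unadjusted p under 0.05 for 435 genes, which is 3.40%, and the usual SE of a gene was 0.21.

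Another 79 rows were listed at 0 in one of the groups, 32 of them in group 2 and 47 in group 1, and 77 of these carry symbols of microRNA precursors or small nucleolar, Cajal body and spliceosomal RNAs. None of the 79 was past the test, and the lowest unadjusted p among them in the authors' deposited table was 0.0791, so they are given no fold change. At the level threshold, the 177 genes that peaked at 1 to 1.1 FPKM had a median absolute difference of 0.098, against 0.096 for the 193 genes at 0.9 to 1 FPKM, and 0 of either kind was past the test. In bulk tissue, fewer cells of a type and less RNA per cell cannot be told apart, which holds for each value that follows.

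**Figure D1:**
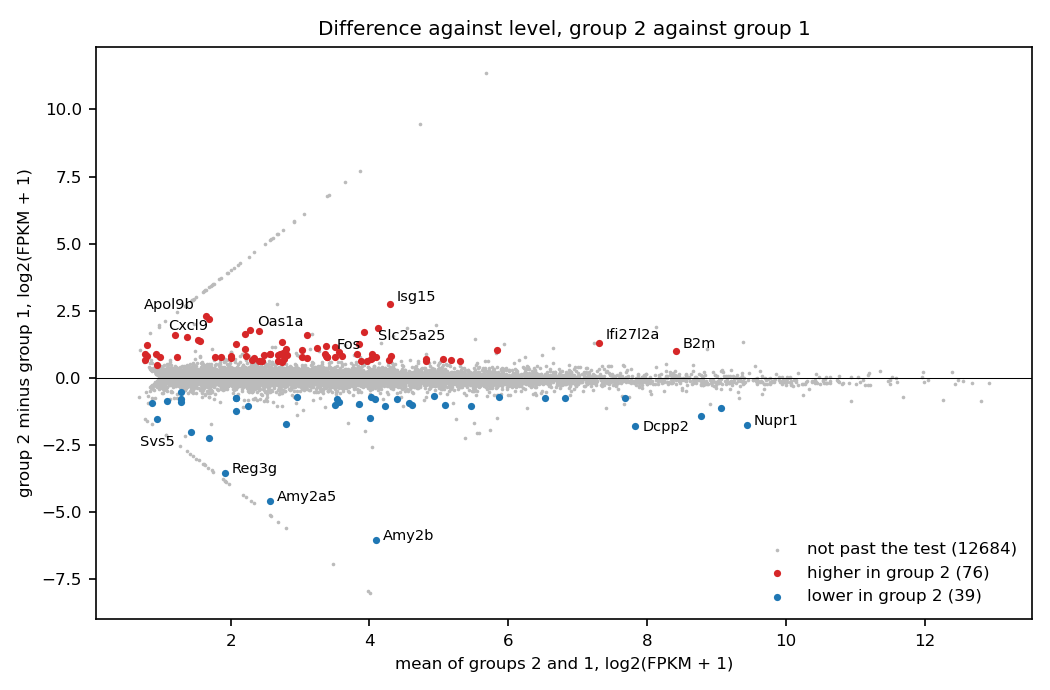
Each point is a measured gene, with its mean level in groups 2 and 1 on the horizontal axis and group 2 minus group 1 on the vertical axis, both as log2(FPKM + 1); red points were higher in group 2 (76), blue points lower (39) and grey points not past the test. The straight grey arms are the 79 rows listed at 0 in one group, none of which was past the test; Isg15 is the highest red point and Amy2b the lowest blue point.

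Antiviral effectors were the largest rises. Isg15 had 49.99 FPKM in group 2, with 14.7 in group 3, 6.94 in group 4 and 6.50 in group 1. Group 2 was the highest of the 4, 7.69-fold over group 1 in FPKM, and the difference of 2.76 ± 0.28 (SE) had a q that the authors' deposited table lists as 0. Apol9b and Apol9a, apolipoprotein L genes of the mouse (chromosome 15, 77559502 to 77566812 and 77234219 to 77241510), had 5.99 and 5.91 FPKM in group 2, with 1.82 and 2.08 in group 3, 0.654 and 0.627 in group 4, and 0.413 and 0.511 in group 1. Their differences were 2.31 ± 0.27 and 2.19 ± 0.28, with q of 5.69e-08 and 9.25e-12 in the authors' deposited table, the next largest rises after Isg15. The Apol9 genes share 52.5% of the 50-base stretches of the Apol9a transcript, so reads may have been split between them and their separate values are uncertain.

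Of 36 measured antiviral effectors outside the Oas family, 12 were higher and 0 lower, with a median difference of 0.48. The cytoskeleton-associated Ifi44 had 3.68 FPKM in group 2, with 1.202 in group 3, 0.478 in group 4 and 0.772 in group 1, a difference of 1.40 ± 0.22 with q = 1.42e-07 in the authors' deposited table. The mitochondrial protein Ifi27l2a was the most abundant of them, at 245 FPKM in group 2, with 83.8 in group 3, 47.1 in group 4 and 100.1 in group 1 (1.28 ± 0.22). For Ifi27l2a, group 1 lay above groups 3 and 4, whereas for Isg15 it lay below both. Ifit1 had 5.58 FPKM in group 2, with 2.90 in group 3, 1.55 in group 4 and 1.73 in group 1 (1.27 ± 0.23), and the receptor transporter Rtp4 had 9.57, 4.98, 2.56 and 3.25 FPKM in the same order of groups (1.31 ± 0.25).

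Lower down the same list, the galectin-3 binding protein Lgals3bp had 15.4 FPKM in group 2 and 7.50 in group 1 (0.95 ± 0.21), and the DNA-sensing family member Ifi205 had 7.85 and 3.82 (0.88 ± 0.24). Bst2 (tetherin), which holds budding virus at the cell surface, had 41.7 FPKM in group 2 and 25.2 in group 1 (0.70 ± 0.22), the galectin Lgals9 had 21.3 and 12.1, and the apoptosis cofactor Xaf1 had 3.46 and 1.63. The other 24 measured effectors did not pass. Among them, Ifit2, Ifit3 and Rsad2 had q of 0.917, 0.99999 and 0.99999 in the authors' deposited table. Ifitm3, which blocks virus entry, had 207 FPKM in group 2 and 154 in group 1 (0.42 ± 0.20, q = 0.356 in the authors' deposited table), and the exonuclease Isg20 had 37.5 and 52.7 (-0.48 ± 0.26, q = 0.513). Ifi27l1, a neighbour of Ifi27l2a in sequence, had 86.1 FPKM in group 2 and 81.1 in group 1 (0.09 ± 0.23), which is within its SE.

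The oligoadenylate synthetases sense double-stranded RNA and make a small messenger that restrains viruses. Of 7 measured members 5 were higher and 0 lower, with a median difference of 1.36, the highest median of the interferon gene lists with more than 2 measured members. Oas1a had 7.96 FPKM in group 2, with 4.49 in group 3, 2.26 in group 4 and 1.62 in group 1, and its difference of 1.77 ± 0.25 had q = 8.53e-10 in the authors' deposited table. Oasl2, a relative that regulates sensing of RNA (chromosome 5, 115346943 to 115362254), had 8.70, 4.76, 2.14 and 1.92 FPKM in the same order (1.73 ± 0.22). Oas2 had 3.75 FPKM in group 2, with 1.36 in group 3, 0.730 in group 4 and 0.848 in group 1 (1.36 ± 0.21), and Oas3 had 1.32 and 0.253 (0.89 ± 0.17). Oas1g had 3.36 FPKM in group 2, with 2.06 in group 3, 1.03 in group 4 and 0.523 in group 1 (1.52 ± 0.23), and since it shares 57.1% of the 50-base stretches of the Oas1a transcript these separate values are uncertain.

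The other 2 measured synthetases did not pass. Oas1b had 1.53 FPKM in group 2 and 0.777 in group 1 (0.51 ± 0.23, q = 0.292 in the authors' deposited table), and Oasl1 had 1.76 and 1.30 (0.26 ± 0.25). Every measured synthetase of the list therefore had a positive difference, and 5 of those 7 were past the test.

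No interferon ligand reached the level threshold. All 9 listed ligands, 3 alpha interferons, Ifnb1, Ifne, Ifnk, Ifng, Il28a and Il28b, were marked as not tested. Their highest level in groups 2 and 1 was 0.0372 FPKM, for Ifng in group 2, against 0.0089 FPKM for Ifng in group 1. The receptors were measured, and none was past the test. Ifnar1 had 4.04 FPKM in group 2, with 4.16 in group 3, 4.28 in group 4 and 3.89 in group 1 (0.04 ± 0.17), and the type II receptor chain Ifngr1 had 20.7 FPKM in group 2 and 16.4 in group 1 (0.32 ± 0.19, q = 0.615 in the authors' deposited table).

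Among 17 measured receptors and signalling components, 4 were higher and 0 lower, and these 4 were transcription factors. Irf7, which amplifies type I interferon production, had 12.9 FPKM in group 2, with 5.65 in group 3, 4.03 in group 4 and 5.44 in group 1 (1.11 ± 0.27, q = 0.00289 in the authors' deposited table). Irf9, which gives the ISRE-binding complex its DNA contact, had 12.8 FPKM in group 2 and 6.80 in group 1 (0.83 ± 0.22), and its partner Stat2 had 5.74 and 3.40 (0.61 ± 0.19). The median of the list was 0.055, close to that of all genes, and the kinases Jak1 (17.2 FPKM in group 2, 16.2 in group 1) and Tyk2 (4.68 and 4.29) did not pass. The constitutive factor Irf3, at 14.5 FPKM in group 2 and 15.5 in group 1 (-0.09 ± 0.19), and the interferon gamma-responsive Irf1, at 7.25 and 7.35, did not pass either.

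Of 6 measured inhibitors of the pathway, only Usp18, the protease that removes Isg15 from proteins and blocks the type I receptor, was past the test. It had 5.705 FPKM in group 2, with 3.25 in group 3, 1.51 in group 4 and 2.19 in group 1 (1.07 ± 0.26, q = 0.00243 in the authors' deposited table). The feedback inhibitors Socs1 (1.384 FPKM in group 2, 1.495 in group 1) and Socs3 (3.95 and 3.22) did not pass. The 8 measured nucleic acid sensors had 0 past the test, although all 8 differences were positive with a median of 0.41. The RNA sensors Dhx58 and Ddx58 had 3.68 and 2.56 FPKM in group 2 against 2.00 and 1.78 in group 1, with differences of 0.64 ± 0.23 and 0.36 ± 0.19 and q of 0.121 and 0.463 in the authors' deposited table.

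Interferon-inducible GTPases attack the membranes of vacuoles that hold microbes, and 7 of 13 measured members were higher and 0 lower, with a median of 0.64. Igtp had 9.10 FPKM in group 2, with 8.11 in group 3, 5.40 in group 4 and 3.76 in group 1, a difference of 1.08 ± 0.23 with q = 3.97e-04 in the authors' deposited table. Its neighbour Irgm2 had 7.01, 5.04, 4.01 and 3.38 FPKM in the same order (0.87 ± 0.21). For both genes the 4 groups had the order 2, 3, 4, 1. Gbp2 had 9.62 FPKM in group 2, with 14.3 in group 3, 7.49 in group 4 and 5.23 in group 1 (0.77 ± 0.22). For Gbp2, group 3 was the highest. Gbp3 had 5.51 FPKM in group 2 and 2.95 in group 1 (0.72 ± 0.22). Gbp6 and Gbp10 had 5.65 and 7.03 FPKM in group 2 against 3.28 and 4.16 in group 1, and they share 76.2% of the 50-base stretches of the Gbp6 transcript, so their split is uncertain. Irgm1, with 17.4 FPKM in group 2 and 11.6 in group 1 (0.55 ± 0.20, q = 0.124), and Gbp7, with 2.37 and 1.61 (0.37 ± 0.18), did not pass.

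Cxcl9, a chemokine that attracts T cells through the receptor CXCR3, was higher in group 2. It had 2.98 FPKM in group 2, with 7.61 in group 3, 1.18 in group 4 and 0.328 in group 1, a difference of 1.59 ± 0.23 with q = 1.12e-10 in the authors' deposited table. Its sister ligand Cxcl10 had 4.55, 14.4, 2.89 and 0.380 FPKM in the same order, a larger difference of 2.01, but its SE of 0.80 left it short of the test (q = 0.475). In both genes group 1 was the lowest group and group 3 the highest.

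MHC class I presents peptides from inside the cell to CD8 T cells. Of 22 measured genes of that pathway 5 were higher and 0 lower, with a median of 0.23, beside 0.594% of all measured genes higher. B2m, the light chain shared by class I molecules, had 482 FPKM in group 2, with 409 in group 3, 337 in group 4 and 240.1 in group 1 (1.00 ± 0.25, q = 0.00334 in the authors' deposited table). The immunoproteasome subunit Psmb9 had 15.9, 14.05, 10.5 and 6.64 FPKM in the same order (1.15 ± 0.29), and the peptide transporter subunit Tap1 had 7.10, 8.70, 7.99 and 3.37 (0.89 ± 0.22). Nlrc5, the transactivator of class I genes, had 1.57 FPKM in group 2, with 3.23 in group 3, 2.75 in group 4 and 0.394 in group 1 (0.88 ± 0.16). H2-Q6, a non-classical class I chain, had 8.34 FPKM in group 2 and 3.89 in group 1 (0.93 ± 0.29, q = 0.0468). Stretches that H2-Q6 shares with other H2-Q genes were not counted, so its separate value is uncertain. For all 5 higher genes, group 1 was the lowest group.

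The classical heavy chains were also above group 1 but not past the test. H2-D1 had 203 FPKM in group 2 and 148 in group 1 (0.45 ± 0.24, q = 0.489 in the authors' deposited table), and H2-K1 had 200.4 and 149 (0.42 ± 0.23, q = 0.529). Psmb8, the partner of Psmb9, had 14.98 FPKM in group 2 and 10.02 in group 1 (0.54 ± 0.24, q = 0.306), and Tap2, the partner of Tap1, had 9.76 and 8.10. Class II molecules, which present to CD4 T cells, had 0 of 7 past the test with a median of 0.34 and 7 positive differences, among them H2-Aa at 88.9 FPKM in group 2 and 65.0 in group 1 (0.45 ± 0.20, q = 0.309).

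**Figure D2:**
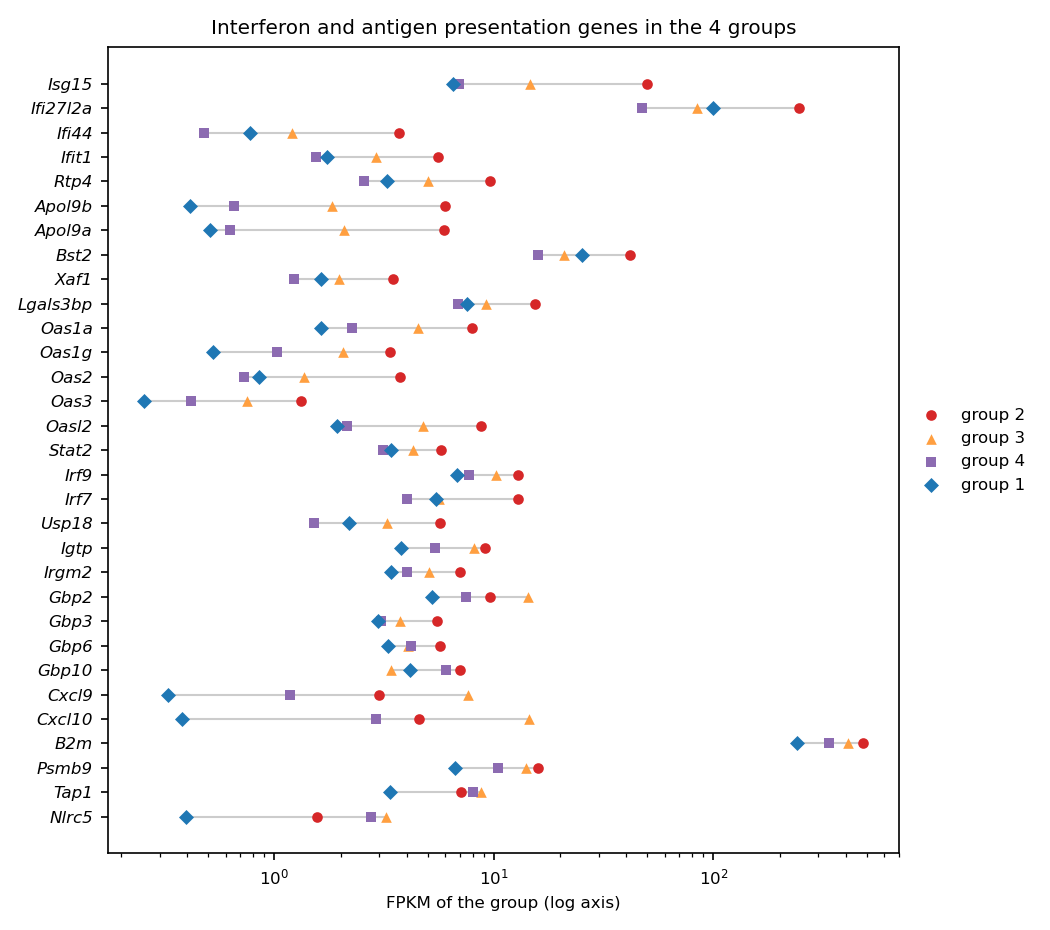
Levels of interferon and antigen presentation genes, 1 row per gene, in FPKM on a log axis; the markers are the authors' values for group 2 (red circle), group 3 (orange triangle), group 4 (purple square) and group 1 (blue diamond). Isg15 lies at 49.99 FPKM in group 2, right of the other 3 groups, while for Cxcl9, Cxcl10, Gbp2 and Nlrc5 group 3 lies farthest right.

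Over all interferon lists together, 30 of 89 measured members were higher and 0 lower, with a median difference of 0.46 and 78 positive differences, beside 0.594% of all measured genes higher and an overall median of 0.016. Group 2 was also set against the other groups with the authors' own tests, which share the group 2 samples with the test against group 1. Against group 4, where 2.25% of 13124 measured genes were higher in group 2 and 3.31% lower, 13 of 91 interferon members were higher and 1, Socs3, lower. Isg15 was above group 4 by 2.68 ± 0.44, Ifi27l2a by 2.36 ± 0.38, Apol9a by 2.09 ± 0.33 and Oas1a by 1.46 ± 0.37, with q = 0.0153 for Oas1a in the authors' deposited table. None of the 13 measured GTPases, and none of the 23 measured class I genes, was past the test against group 4.

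Against group 3, where 0.229% of 13127 measured genes were higher in group 2 and 1.61% lower, 0 of 90 interferon members were past the test. The Isg15 difference from group 3 was 1.70 ± 0.55 (q = 0.0727 in the authors' deposited table) and that of Ifi27l2a was 1.54 ± 0.53 (q = 0.0944). These SEs are larger than those against group 1 for the same genes. Of the 76 genes higher than in group 1, 18 were also higher than in group 4 and 5 higher than in group 3.

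The ISRE core was found in the 250 bases before the start of 17 of the 47 risen genes that have a promoter in the RefSeq table (build GRCm38.p6), which is 36.2%. The share was 2.99% of 8976 measured genes and 3.46% of 27025 genes in the table. The 17 were Apol9a, Apol9b, B2m, Bst2, Fosl2, Gbp2, Gbp3, Ifi205, Ifit1, Igtp, Irgm2, Isg15, Lgals9, Oas1a, Oas1g, Oas3 and Stat2. Of the interferon list members, 24 of 67 held it (35.8%), including 7 of 8 GTPases and 11 of 28 effectors, whether or not they were past the test. Among the 30 lower genes with a promoter, 2 held it, Cldn7 and Sval2.

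Other motifs were less frequent among the rises. The GAS element, spelled TTCNNNGAA, was found in 6 of the 47 (12.8%), beside 7.05% of measured genes, and Oas1a, Bst2, Igtp and Irgm2 held both GAS and the ISRE core. The cyclic AMP element TGACGTCA was found in 2 of 47, Errfi1 and Slc25a25 (4.26%, beside 2.95%), and the CArG box of serum response factor in 0 of 47 (beside 1.53%). A match is a description of letters in this window and says nothing about binding, and no match says only that these letters are not in it.

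**Figure D3:**
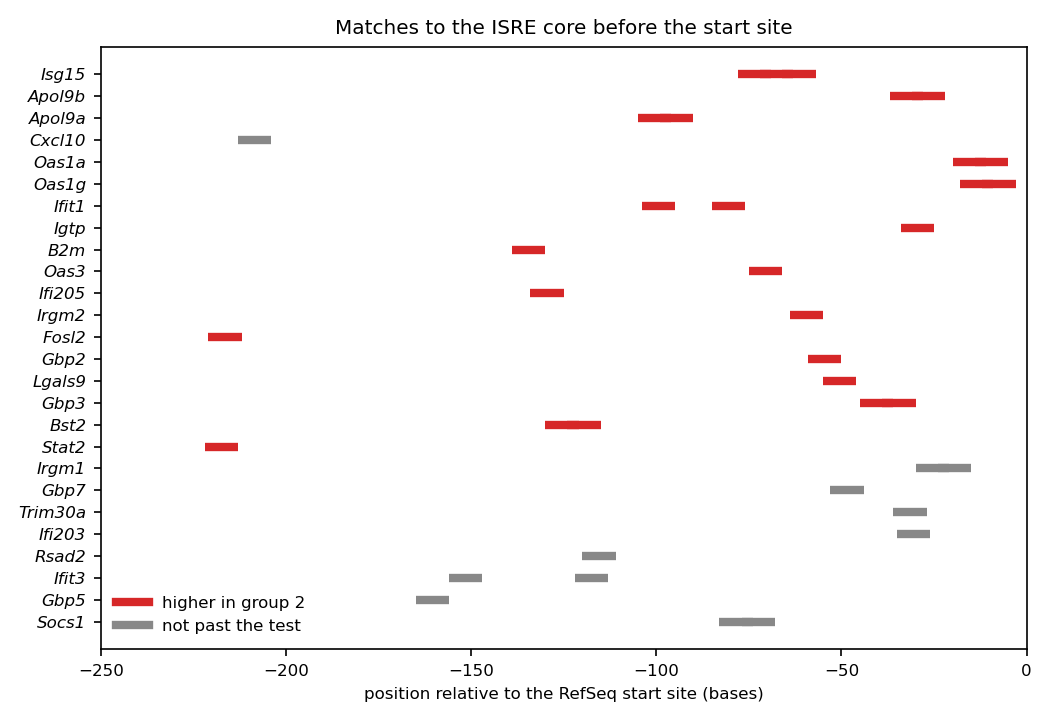
Position of each ISRE core before the RefSeq start for interferon list members and risen genes that hold it, 1 row and 1 start site per gene, as distance from the start in bases; red bars are genes higher in group 2 and grey bars genes not past the test. Most bars lie in the 120 bases nearest the start, with Isg15 between -78 and -57 and Oas1a between -20 and -5, while Stat2 and Fosl2 lie at -222 and -221.

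Immediate early genes contributed 4 rises. Of 30 measured members of that list 4 were higher and 0 lower, with a median of 0.31 and 23 positive differences, beside 0.594% of all measured genes higher. Fos, a subunit of the AP-1 transcription factor (chromosome 12, 86814851 to 86818219), had 14.7 FPKM in group 2, with 12.8 in group 3, 12.2 in group 4 and 5.92 in group 1, a difference of 1.18 ± 0.22 with q = 7.98e-06 in the authors' deposited table. Groups 2, 3 and 4 lay close together and group 1 lay below all of them. Fosl2, another AP-1 subunit, had 12.7 FPKM in group 2, with 20.0 in group 3, 21.1 in group 4 and 6.94 in group 1 (0.79 ± 0.18). The stress factor Atf3 had 8.64 FPKM in group 2 and 3.95 in group 1 (0.96 ± 0.23), and the nuclear protein Csrnp1 had 6.46 and 3.18 (0.84 ± 0.21).

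Most of the family did not pass. Nr4a1, an orphan nuclear receptor, had 62.0 FPKM in group 2 and 39.6 in group 1 (0.63 ± 0.21, q = 0.0608 in the authors' deposited table), and the AP-1 partner Jund had 53.5 and 53.2 (0.01 ± 0.20). Klf4 had 70.4 FPKM in group 2 and 57.4 in group 1 (0.29 ± 0.21), the phosphatase Dusp1 had 57.0 and 46.7, and Gadd45g had 156 and 121. Fosb was past the authors' q (0.0467) but lay at 0.536 FPKM in group 2 and 0.186 in group 1, below the level threshold. In all, 11 genes past the authors' q fell below 1 FPKM in both groups and are not counted.

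Slc25a25, Sik1, Apold1, Irs2 and Otud1, which belong to none of the lists, were also higher in group 2. Slc25a25, a calcium-regulated carrier of ATP in mitochondria, had 26.2 FPKM in group 2, with 8.30 in group 3, 11.999 in group 4 and 7.38 in group 1, and its difference of 1.70 ± 0.21 had a q that the authors' deposited table lists as 0. Sik1, a salt-inducible kinase, had 21.5, 10.9, 17.4 and 8.34 FPKM in the same order (1.27 ± 0.19). Apold1, an endothelial early response gene, had 7.07, 2.35, 4.19 and 1.64 FPKM (1.61 ± 0.22). In these 3 genes group 2 was the highest group, and Slc25a25 was also higher than in group 3 by 1.55 ± 0.45 (q = 0.0314 in the authors' deposited table) and than in group 4 by 1.07 ± 0.33 (q = 0.0437). The insulin receptor substrate Irs2 had 7.61 FPKM in group 2 and 3.76 in group 1 (0.86 ± 0.20), and the deubiquitinase Otud1 had 18.3 and 9.41 (0.89 ± 0.19).

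The circadian list had 2 of 19 higher, the clock repressor Per1 (20.4 FPKM in group 2, 11.7 in group 1, difference 0.75) and the clock-linked repressor Nfil3 (12.8 and 7.02, 0.78 ± 0.21). Its median was 0.095 with 15 positive differences, and 0.594% of all measured genes were higher. No SE could be resolved for Per1. The clock genes Dbp and Nr1d1 did not pass: Dbp had 58.7 FPKM in group 2 and 66.1 in group 1 (-0.17 ± 0.29), and Nr1d1 had 42.2 and 47.6 (-0.17 ± 0.20). Whether time of day bears on any of these values was not tested. The glucocorticoid-responsive list had 3 of 17 higher, Per1 again, Errfi1, an inhibitor of EGF receptors (15.1 and 8.24 FPKM, 0.80 ± 0.19), and the factor Cebpd (13.0 and 6.54, 0.90 ± 0.21). The median of that list was 0.16 with 14 positive differences. Tsc22d3, another glucocorticoid target, had 88.2 FPKM in group 2 and 55.8 in group 1 (0.65 ± 0.22, q = 0.0795 in the authors' deposited table).

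Matrix and growth factor genes were mixed. Ctgf, a matricellular target of YAP, had 81.0 FPKM in group 2, with 24.8 in group 3, 29.7 in group 4 and 39.0 in group 1, a difference of 1.04 ± 0.20 with q = 6.15e-05 in the authors' deposited table. The Wnt antagonist Sfrp4 had 25.3, 7.004, 8.55 and 13.99 FPKM in the same order (0.81 ± 0.20), the cartilage matrix protein Cilp had 44.4, 12.4, 18.8 and 28.0 (0.65 ± 0.20), and the thrombospondin Thbs4 had 48.1, 14.7, 20.5 and 30.5 (0.64 ± 0.20). For these 4 genes group 2 was the highest and group 1 the next, and all 4 were past the test against groups 3 and 4 as well. Ctgf exceeded group 3 by 1.67 ± 0.45 and group 4 by 1.42 ± 0.33.

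On the same list of matrix and muscle-type targets, Cnn1, the smooth muscle protein calponin, was lower, with 11.6 FPKM in group 2, with 6.97 in group 3, 3.49 in group 4 and 20.0 in group 1 (-0.74 ± 0.21, q = 0.0281 in the authors' deposited table). Other smooth muscle members had differences below 0 without passing, with Acta2 at 73.9 FPKM in group 2 and 106 in group 1 (-0.51 ± 0.22) and Tagln at 43.6 and 68.2 (-0.63 ± 0.28). Fibroblast markers had 0 of 12 past the test but 12 positive differences with a median of 0.25, with Dcn at 532 FPKM in group 2 and 454 in group 1 and Dpt at 131 and 125. Whether the share of stromal cells bears on Ctgf, Sfrp4, Cilp and Thbs4 was not tested.

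Several further rises, Hdc apart, belonged to none of the lists. Chi3l4, a chitinase-like protein, had 32.3 FPKM in group 2, with 104 in group 3, 37.1 in group 4 and 8.21 in group 1, a difference of 1.85 ± 0.24 with q = 7.92e-12 in the authors' deposited table, and it shares 18.5% of its 50-base stretches with Chi3l3. The unnamed gene 8430408G22Rik had 13.9 FPKM in group 2, with 4.82 in group 3, 4.05 in group 4 and 3.95 in group 1 (1.59 ± 0.34, q = 4.62e-04). The chemokine Ccl22 had 1.30 and 0.308, and the lipoxygenase Alox15 had 2.06 and 0.798. The lymphatic marker Lyve1 had 13.95 FPKM in group 2 and 7.65 in group 1 (0.79 ± 0.19), the sphingosine receptor S1pr1 had 18.4 and 11.4 (0.64 ± 0.19), and the leucine zipper factor Maf had 19.8 and 11.7. Hdc, the histamine-making enzyme of mast cells, had 1.14 FPKM in group 2 and 0.363 in group 1 (0.65 ± 0.19). It was the single member past the test among 6 measured mast cell markers, which had 6 positive differences and a median of 0.47.

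Salivary gland genes were lower in group 2. Of 20 measured members of the list 9 were lower and 1 higher, with a median of -0.76 and 1 positive difference. Of all measured genes, 0.305% were lower and 0.594% higher. Dcpp2, a demilune cell and parotid protein (chromosome 17, 24035689 to 24037754), had 121 FPKM in group 2, with 79.3 in group 3, 6.07 in group 4 and 423 in group 1, and its difference of -1.80 ± 0.23 had q = 1.49e-12 in the authors' deposited table. Dcpp3 had 267, 119, 11.6 and 712 FPKM in the same order (-1.41 ± 0.23), and Dcpp1 had 359.9, 108, 11.9 and 787 (-1.13 ± 0.24). The 3 genes have the same order of groups, with group 1 highest and group 4 lowest. Dcpp1 shares 35.7% of its 50-base stretches with Dcpp2 and as many with Dcpp3, so the split of reads between them is uncertain.

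The other lower gland genes had smaller differences. Bhlha15, a transcription factor of serous secretory cells also called Mist1, had 9.28 FPKM in group 2, with 9.77 in group 3, 0.913 in group 4 and 19.04 in group 1 (-0.96 ± 0.20, q = 3.52e-04 in the authors' deposited table), and Spdef, a factor of mucous cells, had 29.7, 26.5, 21.3 and 62.6 (-1.05 ± 0.23). Both factors stood at about the same level in groups 2 and 3. The water channel Aqp5 had 69.9 FPKM in group 2 and 119 in group 1 (-0.76 ± 0.24), the secreted Azgp1 had 11.9 and 21.3 (-0.78 ± 0.23), Sval2 had 85.9 and 144 (-0.74 ± 0.23), and lactoferrin, Ltf, had 44.5 and 73.6 (-0.71 ± 0.22). Klk1, a tissue kallikrein of salivary ducts, went the other way, with 10.6 FPKM in group 2, with 3.14 in group 3, 20.4 in group 4 and 4.71 in group 1 (1.02 ± 0.32, q = 0.0466).

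The most abundant gland transcripts did not pass, with wide errors. Sbp, the spermine-binding protein, had 5317 FPKM in group 2, with 642 in group 3, 105 in group 4 and 9676 in group 1 (-0.86 ± 0.64), the trefoil peptide Tff2 had 3674 and 6572 FPKM in groups 2 and 1 (-0.84 ± 0.51), and the proline-rich Prb1 had 490 and 834 (-0.77 ± 0.50). Agr2, which folds mucins, had 447 FPKM in group 2 and 578 in group 1 (-0.37 ± 0.30). Summed over the listed genes not over the read limit, the list reached 11459 FPKM in group 2 and 20734 in group 1. Amy1, Muc5b, Bpifb1 and 4 other genes exceeded the authors' limit on reads in this comparison and were not tested. Amy1, the salivary amylase, had 3713 FPKM in group 2, with 5543 in group 3 and 381 in group 4 and no value in group 1, and the mucin Muc5b had 294, 286 and 71.0 FPKM and likewise none in group 1.

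Against group 4, 12 of 24 measured salivary genes were higher in group 2 and 2 lower (Lpo and Pip), beside 2.25% higher and 3.31% lower of all measured genes. Against group 3, 0 of 25 were higher and 3 lower (Car6, Lpo and Pip), beside 0.229% higher and 1.61% lower of all measured genes. Dcpp2 exceeded group 4 by 4.11 ± 0.59 and differed from group 3 by 0.61 ± 0.72, which is within its SE. Pglyrp1, Fcgbp and Odam, which belong to none of the lists, were lower as well. The peptidoglycan receptor Pglyrp1 had 157 FPKM in group 2 and 267 in group 1 (-0.76 ± 0.23), the mucus protein Fcgbp had 2.26 and 4.43 (-0.74 ± 0.17), and Odam, a secreted protein of gland and junctional epithelium, had 11.98 FPKM in group 2, with 23.7 in group 3, 2.37 in group 4 and 26.16 in group 1 (-1.07 ± 0.26). The keratin Krt8 of simple epithelium had 23.01 FPKM in group 2 and 37.6 in group 1 (-0.68 ± 0.21), and its partner Krt18 had 45.6 and 71.0 without passing (-0.63 ± 0.22, q = 0.0984 in the authors' deposited table). How much gland tissue each sample held was not measured, and its part in these values was not tested.

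The largest falls were in genes that stood apart in group 1. Amy2b, a pancreatic-type amylase (chromosome 3, 112950574 to 112959645), had 1.095 FPKM in group 2, with 1.49 in group 3, 0.139 in group 4 and 139 in group 1, a difference of -6.06 ± 0.23. Amy2a5, its paralog, had 0.206, 0.354, 0.0314 and 28.1 FPKM in the same order (-4.59), and the antimicrobial lectin Reg3g had 0.0986, 0.469, 0.0094 and 12.02 (-3.57, q = 2.85e-08 in the authors' deposited table). In each of the 3, group 1 exceeded every other group while groups 2, 3 and 4 had at most 1.49 FPKM. No SE could be resolved for Amy2a5 and Reg3g.

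The amylase values coincide with a gap in the same gene cluster. Amy1 (chromosome 3, 113258870 to 113280668) was over the read limit in group 1 and in no other group, and its closest relatives have their high values in that group. In groups 2, 3 and 4, Amy2b was 0.0295%, 0.0269% and 0.0366% of Amy1 in FPKM, and Amy2a5 was 0.0055%, 0.0064% and 0.0082%. Amy2a5 shares 2.04% of its 50-base stretches with Amy1, and no such count was available for Amy2b. Whether reads of Amy1 were counted for Amy2b and Amy2a5 in group 1 was not tested. Several other pancreatic enzymes were at or near 0 in group 2 and group 1. They included Pnlip (0 and 0.0078 FPKM), Cela3b (0 and 0.0075), Prss2 (0.157 and 0.160) and Cpa1 (0 and 0.0072). Of the 34 listed genes found, 29 were below 1 FPKM in both groups or untested. Of the 5 measured, 3 were lower and 2 did not pass, with 0 positive differences. Without genes over the read limit, the list summed to 669 FPKM in group 2 and 1182 in group 1, so other members were abundant in both groups.

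Other falls with group 1 highest lay at lower levels. Upk1b, a tetraspanin of bladder lining, had 0.115 FPKM in group 2, with 0.131 in group 3, 0.0606 in group 4 and 2.27 in group 1 (-1.55, q = 1.11e-09 in the authors' deposited table), and Clca4, a chloride channel regulator, had 0.313, 0.240, 0.0905 and 1.53 (-0.95 ± 0.16). The pepsinogen Pga5 had 0.576, 0.490, 0.0187 and 1.85 FPKM (-0.86 ± 0.23). Group 1 was the highest group for each of them. Between groups 3 and 1, though, Clca4 and Pga5 were not past the test (q = 0.129 and 0.550 in the authors' deposited table). Svs4 and Svs5, named for seminal vesicle secretion (chromosome 2, 164101692 to 164104043 and 164158501 to 164160130), differed: Svs4 had 0.328 FPKM in group 2, with 0.0796 in group 3, 28.0 in group 4 and 4.46 in group 1 (-2.04 ± 0.33), and Svs5 had 0.475, 0.102, 26.7 and 6.04 (-2.26 ± 0.31). Group 4 was the highest for both, where group 2 minus group 4 was -4.45 ± 0.50 and -4.23 ± 0.50.

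Several genes known by a clone or model symbol were among the 15 largest falls. Gm20579 had 2.82 FPKM in group 2, with 0.0954 in group 3, 0.0255 in group 4 and 11.6 in group 1, a difference of -1.72 with q = 5.52e-07 in the authors' deposited table, and no SE could be resolved for it. A630073D07Rik had 8.61 FPKM in group 2, with 25.9 in group 3, 0.402 in group 4 and 26.2 in group 1 (-1.50 ± 0.34), and 4931407G18Rik had 1.75, 5.72, 0.129 and 5.49 in the same order (-1.24 ± 0.26). For these 2 genes groups 3 and 1 stood close together, with group 2 below them and group 4 the lowest. BC030870 had 2.30 FPKM in group 2, with 2.66 in group 3, 3.51 in group 4 and 5.90 in group 1 (-1.07 ± 0.28), and group 1 was the highest.

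Stress and detoxification genes were among the remaining falls. Nupr1, a stress-induced nuclear protein, had 376 FPKM in group 2, with 630 in group 3, 229.9 in group 4 and 1264 in group 1. Its difference was -1.75 ± 0.29 with q = 3.13e-07 in the authors' deposited table. It was the single member past the test among 23 measured genes of the endoplasmic reticulum and integrated stress list (median -0.19, 4 positive differences). Cyp2a5, a cytochrome P450 that oxidises nicotine and nitrosamines, had 16.3 FPKM in group 2, with 4.40 in group 3, 4.76 in group 4 and 33.6 in group 1 (-1.003 ± 0.220). Group 1 was the highest group for both genes. Heme oxygenase Hmox1 had 15.03 FPKM in group 2, with 41.7 in group 3, 36.3 in group 4 and 27.0 in group 1 (-0.80 ± 0.20), and the cystine carrier Slc7a11 had 1.03, 17.1, 20.7 and 1.93 (-0.53 ± 0.15). Those 2 were the members past the test among 36 measured targets of NRF2, whose median was -0.07, and abundant members such as Gsta4 (207 FPKM in group 2, 251 in group 1) and Prdx1 (281 and 306) did not pass.

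**Figure D4:**
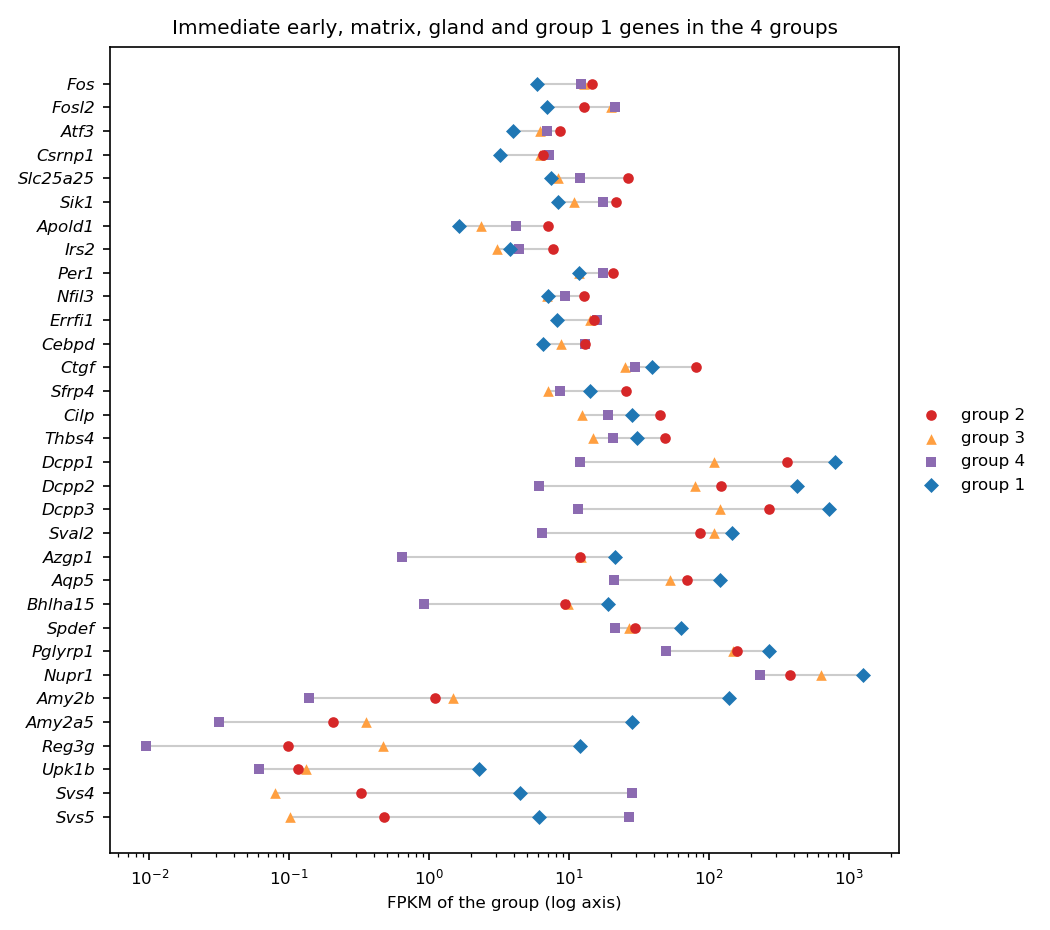
Levels of immediate early, matrix, gland and group 1 genes, 1 row per gene, in FPKM on a log axis, as the authors' values for group 2 (red circle), group 3 (orange triangle), group 4 (purple square) and group 1 (blue diamond). Group 1 lies left of the other groups for Fos and right of them for Dcpp2, Nupr1, Amy2b and Amy2a5, where it reaches 139 FPKM for Amy2b against 1.095 in group 2.

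The tissue label held in both groups. Fast skeletal muscle markers summed to 38376 FPKM in group 2 and 41650 in group 1, with 0 of 19 past the test and a median of -0.06; the muscle creatine kinase Ckm had 5514 and 5901 FPKM. Keratin Krt13 of the tongue lining had 5770 FPKM in group 2 and 5036 in group 1, and 0 of 12 basal and 0 of 29 differentiated keratinocyte markers were past the test. Some epithelial genes outside those lists were. Dsg1b (17.2 FPKM in group 2, 10.9 in group 1, 0.62 ± 0.19) and Eppk1 (7.20 and 4.47, 0.58 ± 0.18) were higher. Cldn7 (7.61 and 15.1, -0.90 ± 0.26) was lower. Xist, transcribed from the inactive X chromosome, had 11.7 FPKM in group 2 and 14.3 in group 1, while the Y-linked Kdm5d and Eif2s3y were listed at 0 in both.

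Markers of immune and vessel cells showed small differences, and none of the lists below had a gene past the test. Macrophage markers had a median of 0.30 with 11 of 12 positive, with C1qb at 43.2 FPKM in group 2 and 35.04 in group 1 (0.30 ± 0.20), and the list summed to 320 FPKM in group 2 and 305 in group 1. Endothelial markers had a median of 0.28 with 10 of 11 positive, with Pecam1 at 23.8 and 18.8 FPKM (0.33 ± 0.19). T and NK cell markers were barely detected, with 2 of 16 measured, Cd8a at 0.072 FPKM in group 2 and 0.034 in group 1, Cd3e at 0.211 and 0.0757, and a summed level of 7.66 and 6.27 FPKM. None of 9 B and plasma cell markers was measured. The part of these cells in the interferon and class I values was not tested.

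Several processes that DNA damage or ethanol could touch had 0 genes past the test in this comparison, where the authors' test had 115 calls and 435 genes at an unadjusted p under 0.05. These were DNA repair (20 measured, median 0.031), p53 targets (20, 0.056), cell cycle (28, 0.27), heat shock (14, 0.029) and alcohol and aldehyde metabolism (17, -0.042). The inflammation list had 0 of 10 measured past the test, and Il1b, for example, lay below 1 FPKM in both groups (0.814 in group 2 and 0.782 in group 1). A list without a call does not show that its genes were equal, since the smallest rise called here was 0.48 and the smallest fall -0.53.

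**Figure D5:**
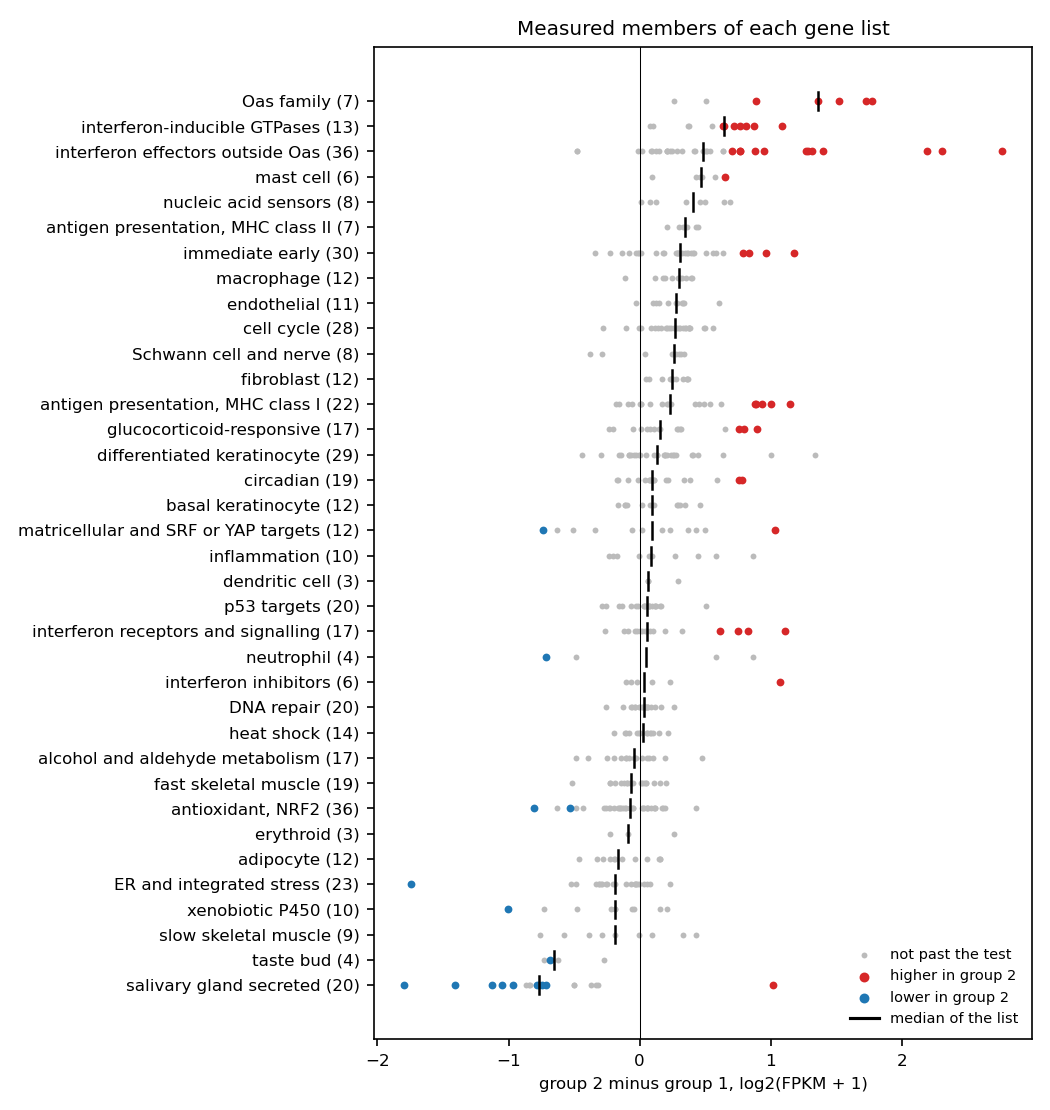
Measured members of each gene list (number measured in parentheses) by group 2 minus group 1 as log2(FPKM + 1), with lists ordered by their median (black bar); red points were higher in group 2, blue points lower and grey points not past the test. The Oas list and the interferon-inducible GTPases lie highest, at medians of 1.36 and 0.64, and the salivary gland list lies at the low end with -0.76; lists with fewer than 3 measured genes and the exocrine pancreas and seminal vesicle lists are not drawn.

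Some genes past the test lay near each other in the genome. Of the 115, 27 had another within 100 kb (23.5%), beside 307 of 12654 other measured genes with such a neighbour (2.43%), and for 25 of the 27 every neighbour moved the same way. On chromosome 5, Oas2, Oas3, Oas1g and Oas1a lie in that order between 121180342 and 121357534, all higher. Gbp2 and Gbp3 on chromosome 3, Gbp6 and Gbp10 on chromosome 5, Igtp and Irgm2 on chromosome 11, and Psmb9 and Tap1 on chromosome 17 are higher neighbours, and Dcpp1, Dcpp2 and Dcpp3 on chromosome 17 are lower ones. Ifit1 and Gm14446 on chromosome 19 are the exception: Ifit1 was higher, whereas Gm14446 was lower, with 0.840 FPKM in group 2 and 2.22 in group 1 (-0.81 ± 0.23). Gm14446 belongs to none of the lists, so the interferon counts do not cover it. Most of these clusters hold paralogs, so their genes are related in sequence as well as in position.

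The count of calls depended on the adjustment and on how the spread was estimated. With the authors' p adjusted within this comparison, 49 genes were higher and 23 lower in place of 76 and 39. When, under that same adjustment, each gene was also given a single variance in common for the 4 groups and a normal p, 12 were higher and 1 lower. Isg15, Apol9a, Apol9b, Oas1a, Oas1g, Oasl2, Cxcl9, Nlrc5, Chi3l4, Slc25a25 and Apold1 were among the 12, Amy2b was the 1, and 0 of the salivary genes and 0 of the immediate early genes passed. The single-variance retest could use only genes with a resolved SE. It therefore left out Amy2a5, Reg3g, Upk1b, Gm20579 and Per1, which neither passed nor failed it.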

How the data were processed

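RNA of 12 tongue samples, 3 for each of 4 treatment groups, was sequenced with an Illumina HiSeq2000, and Cufflinks levels on mm9 were computed, per the series design text; GSNAP 2011.11.17 and edgeR are named without a role in the submitters' processing notes. The authors deposited 6 tables of 23235 gene rows, each with an FPKM for either group of a pair, a log2 ratio, a test statistic (a score per the file headers), a p-value and a q-value. The levels were read as FPKM, the unit the design text gives. Values per sample are not in these tables, and the depth is unknown. Computed here with Python 3.11.15, pandas 2.3.3 and scipy 1.17.1 were log2(FPKM + 1) differences and SEs. Each SE is the authors' log2 ratio over their statistic; for 14598 genes the 6 squared SEs were split by least squares into 1 variance per group and moved to the FPKM + 1 scale by the delta method, which was tested on simulated data. Past the test means status OK, the authors' q under 0.05 and 1 FPKM in either group. The reported calls rest on the authors' tests alone; p-values were computed here only for the alternatives.

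The members, the 43 gene lists (727 of 756 genes found by symbol) and the tests were chosen with earlier results of these data known. Named genes are Isg15, Oas1a, Fos and Dcpp2, genes past the test (full values for the 15 largest rises and falls), and, of each list, members that define a role or up to 4 abundant members that did not pass. A few more (Ifit2, Ifit3, Rsad2, Oas1b, Oasl1, Irf1, Il1b, Cd3e, Cd8a, Fosb and the pancreatic enzymes at or near 0) were named after their values were seen. The 115 rows with several symbols or a date in place of a symbol, and some genes, are not reported here by name. The 8310 rows not marked OK were not used for calls. Promoters are RefSeq sequences (GRCm38.p6); the 6 printed stretches were placed on mm9 by exact, unique match. Shared 50-base stretches were counted between GENCODE transcripts. Alternatives were other q, fold and FPKM thresholds, adjustment within the comparison, Bonferroni, a shared variance and centring (both with adjustment within the comparison) and pseudocounts of 0 and 0.1.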

Additional observations from a re-analysis of the deposited data

How the results depend on the processing

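Counts of higher and lower genes in group 2, 76 and 39 as reported, were 43 and 22 at a q threshold of 0.01, 26 and 18 with a fold change of at least 2, 49 and 23 with adjustment within the comparison, 24 and 13 with Bonferroni, 50 and 23 after centring (a shift of -0.0074) and a retest with that adjustment, and 12 and 1 with a single variance per gene and that adjustment. The last 2 changed the adjustment as well, so they compare with 49 and 23, not with 76 and 39. The single-variance retest also left out genes without a resolved SE. Without an FPKM filter the counts were 84 and 42, and at 5 FPKM 60 and 30. Interferon members that were higher ranged between 7 and 31 over these settings (30 as reported), and salivary genes that were lower between 0 and 9 (9 as reported). The lowest value of either came from the single variance per gene with adjustment within the comparison, and the cause was not tested. Of the 7 higher interferon-inducible GTPases, 2 stayed with adjustment within the comparison and 0 with the single variance. Of the 5 higher Oas members, 5 and 3 stayed under the same settings. With a pseudocount of 0.1 or 0 the median of the Oas list was 2.02 or 2.18 in place of 1.36. These alternatives could not test direction. For a called gene a pseudocount keeps the sign of the difference, and the centring shift was smaller than the smallest called difference. No paired analysis was possible because the deposited tables hold 1 value per group and no column carries a replicate number, and for the same reason no replicate could be left out. The unknown depth leaves the counting error of each level unstated.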
